A study of Mus musculus with 43 samples.

Results

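The comparison described here sets CD4 T cells exposed to intermediate persisting antigen against cells exposed to low persisting antigen, both sorted 10 days after transfer. Its members are the 9 arrays whose titles name these groups, 4 of the intermediate group (int) and 5 of the low group, out of 43 arrays in the series. Each array holds amplified RNA of one sorted T cell sample, and each of 22180 genes is represented by 1 probe set.

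In both groups the donor cells were AND TCR transgenic CD4 T cells, all bearing one receptor for a moth cytochrome c peptide, from CD45.1+ mice that lacked Rag2. They had been transferred into iMCC recipients, in which dendritic cells make an invariant chain carrying that peptide while doxycycline is in the drinking water. All recipients of both groups were given an anti-CD40 antibody and 100 µg/ml doxycycline 1 day before the transfer. From day 3 the int recipients were kept on 100 µg/ml and the low recipients on 10 µg/ml, and this is the labelled difference between the groups. Further sets of arrays serve as context. The none group (5 arrays, day 10) was taken off doxycycline on day 3. The high group (4 arrays, day 10) came from cMCC recipients, a different strain whose MHC-II+ cells always express a peptide construct and which was given no doxycycline. The day 30 int and low groups (5 arrays each) were kept on the same doses and sorted in a second series, and an effect of that second series cannot be told apart from one of day. The antigen dose was set through the drug and through dendritic cells only, and no label ties the arrays of a group to separate animals. The p-values therefore rest on the spread between arrays, part of which may be technical.

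When a CD4 T cell keeps meeting its antigen, signals through the receptor and NFAT, with too little partner signalling, switch on a programme of inhibitory receptors and transcription factors that is described as anergy or exhaustion. Members of the NR4A and EGR families, IRF4 and the inhibitory receptor LAG-3 are known parts of it. Cells that are free of antigen instead keep the IL-7 receptor and the receptors that let them leave lymphoid tissue, and live on as memory cells.

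Between the low and the intermediate persisting dose 120 genes differed, 68 of them higher and 52 lower in int cells (limma, p-values adjusted by Benjamini-Hochberg over the 22180 genes, threshold 0.05). Genes said to rise or fall were higher or lower in int than in low cells, and no change over time is meant. That is 0.541% of the genes tested, with 0.307% higher and 0.234% lower. Of the 120 genes, 86 differed by at least 2-fold, which is 0.388% of all genes. The genes that rose most encode OX40 ligand (Tnfsf4) and LAG-3, followed among annotated genes by Eomes, Sox4 and Il21. The genes that fell most encode the IL-7 receptor (Il7r), the inducible chaperones HSP70 (Hspa1b and Hspa1a), the IL-18 receptor (Il18r1) and the transcription factor Jun. An unadjusted p under 0.05 was reached by 1292 genes. Over all genes, 826 (3.72%) had int and low arrays that did not overlap, and 113 of the 120 called genes were among these. In RNA of a whole sorted population, fewer cells that express a gene and less RNA per cell cannot be told apart.

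**Figure D1:**
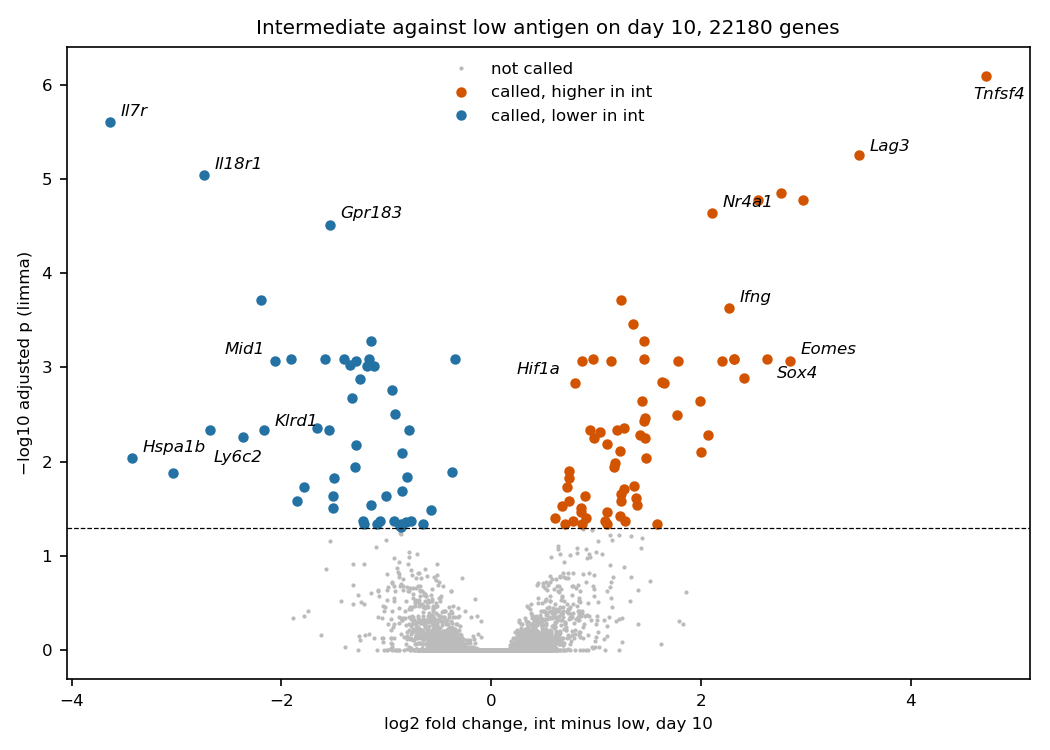
Each point is 1 of 22180 genes, with the log2 fold change of int minus low on day 10 on the horizontal axis and −log10 of limma's adjusted p on the vertical axis. The dashed line marks an adjusted p of 0.05, above which lie 68 genes higher in int (orange) and 52 lower (blue). Tnfsf4 (4.72) and Il7r (-3.63) lie at the right and left ends.

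Signals are given on the log2 scale, on which the arrays' medians over all probe sets lay between 3.28 and 3.44, so that a gene near 3 is at the dim end. The sort markers were present in all 9 arrays. Cd4 lay at 9.41 to 9.99 in int and 9.27 to 9.82 in low arrays, Thy1 (CD90) at 10.98 to 11.13 and 10.77 to 11.40, and Ptprc (CD45) at 11.14 to 11.42 and 10.94 to 11.26. Rag2, the gene deleted in the donors, was at the dim end in every int array (2.60 to 2.75) and every low array (2.56 to 2.84), which is no check of the genotype in mature T cells. Each int array correlated with the other int arrays at 0.977 to 0.98 on average and each low array with the other low arrays at 0.98 to 0.985, while int with low arrays gave 0.969 to 0.98. Int replicate 3 had the lowest of these correlations in the int group and low replicates 4 and 5 the lowest in the low group, and these 3 arrays were picked after the data were seen. Without them, 41 genes were called, 22 higher and 19 lower. Where a named gene lost its call without these 3 arrays, that adjusted p is given beside it.

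Tnfsf4 encodes OX40 ligand, a TNF-family protein that binds the costimulatory receptor OX40. Its signal was 7.24, 6.92, 8.29 and 8.36 in the int arrays, against 2.42, 3.12, 3.11, 3.42 and 2.85 in the low arrays. The int arrays stood more than 3 log2 units above every low array, and the low arrays were at the dim end of the scale. The difference was 4.72 ± 0.54 (SE), a 26.3-fold higher signal (limma, adjusted p = 8.05e-07). Its receptor gene Tnfrsf4 rose by less, to 7.18 ± 0.26 (SD, n = 4) in int cells, against 5.95 ± 0.35 (n = 5) in low cells, a difference of 1.23 ± 0.30 (SE, limma, adjusted p = 0.0379), and held its call in 2 of the 9 fits that each left out 1 int or low array. Without the 3 arrays its adjusted p was 0.154.

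Lag3, whose product binds MHC class II and restrains T cell activation, had 8.84, 9.34, 9.57 and 9.10 in the int arrays. In the low arrays it had 5.19, 5.36, 5.94, 6.32 and 5.72. No array of either group came within 2 log2 units of the other group, and the difference was 3.51 ± 0.45 (SE), or 11.4-fold (limma, adjusted p = 5.63e-06). A further 3 genes rose among the 18 measured members of the inhibitory receptor list, which also holds ligands and ectoenzymes, and none of the 18 fell. Tigit, an inhibitory receptor for CD155, averaged 6.39 ± 0.85 (SD, n = 4) in int and 4.39 ± 0.33 (n = 5) in low cells (2.00 ± 0.42 SE, limma, adjusted p = 0.00792, and 0.5 without the 3 arrays). The Tigit call held in 7 of 9 fits that left out an array. Nt5e, which encodes the AMP-cleaving ectoenzyme CD73, averaged 7.29 ± 0.41 and 5.51 ± 0.41 (1.78 ± 0.31 SE, limma, adjusted p = 0.000845, and 0.0525 without the 3 arrays). Cd200, the ligand of an inhibitory receptor of myeloid cells, averaged 8.58 ± 0.33 and 7.12 ± 0.25 (1.46 ± 0.29 SE, limma, adjusted p = 0.00372, and 0.15 without the 3 arrays). The genes of PD-1 and CTLA-4 did not pass. Pdcd1 had 5.98, 5.56, 6.31 and 6.95 in int arrays and 5.28 to 5.93 in low arrays, so the groups overlapped (0.58 ± 0.35 SE, limma, adjusted p = 0.999). Ctla4 did not overlap, with 6.40 to 7.07 in int and 5.77 to 6.22 in low arrays, but at 0.72 ± 0.24 (SE) its adjusted p was 0.319. The median difference of the 18 genes was 0.17, beside a median of about 0 over all genes tested.

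Transcription factors tied to continued stimulation included the member with the largest rise in that group, Eomes, a T-box factor. Eomes had 6.25, 5.63, 7.90 and 7.82 in the int arrays, against 3.93, 3.78, 3.95, 4.80 and 3.78 in the low arrays. The int arrays were spread over more than 2 log2 units, yet the lowest of them lay above every low array. The difference was 2.85 ± 0.51 (SE, limma, adjusted p = 0.000845). Of the 16 measured factors of this group, 5 rose, none fell and 11 were not called, with a median of 0.75. The other four were Ikzf2 (Helios), with 2.31 ± 0.40 (SE), the immediate early receptor genes Nr4a1 (2.10 ± 0.29) and Nr4a3 (1.47 ± 0.29), and Irf4, an interferon regulatory factor induced in proportion to receptor signals (1.65 ± 0.30). Without the 3 arrays the adjusted p was 0.119 for Nr4a3 and 0.112 for Irf4. Ikzf2 averaged 8.49 ± 0.33 (SD, n = 4) in int and 6.18 ± 0.19 (n = 5) in low cells. Tox, a factor of exhausted T cells, was not called, although its int arrays (8.32 to 8.77) all lay above its low arrays (7.72 to 7.91) at a difference of 0.73 ± 0.21 (SE, limma, adjusted p = 0.17). Sox4, an SRY-type factor outside this group, had 7.01, 5.54, 7.86 and 7.24 in int arrays, against 4.54, 4.52, 4.67, 3.91 and 3.78 in low arrays. Its groups did not overlap (2.63 ± 0.46 SE, limma, adjusted p = 0.000811), and its adjusted p without the 3 arrays was 0.178.

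The promoters of 2 rising and 2 falling genes are shown because these genes carry the largest changes among the named genes for which a RefSeq promoter was at hand. Each is the 300 bases from 250 before to 50 after the start of the gene, read on the strand of the gene (RefSeq, GRCm38.p6). Capitals mark matches to one of the motifs searched on both strands. These were TGGAAA, the core that NFAT factors bind, TGANTCA for AP-1, AAGGTCA for NR4A receptors, and GNGGGCG for EGR factors, which overlaps the GC boxes of many promoters.
Eomes, chr9:118477939-118478238, plus strand: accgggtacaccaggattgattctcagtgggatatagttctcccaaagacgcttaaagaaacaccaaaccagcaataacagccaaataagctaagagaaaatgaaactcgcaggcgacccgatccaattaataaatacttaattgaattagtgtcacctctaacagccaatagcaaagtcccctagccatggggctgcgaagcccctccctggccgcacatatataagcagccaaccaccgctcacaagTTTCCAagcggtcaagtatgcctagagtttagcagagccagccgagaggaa
Sox4, chr13:28953650-28953949, minus strand: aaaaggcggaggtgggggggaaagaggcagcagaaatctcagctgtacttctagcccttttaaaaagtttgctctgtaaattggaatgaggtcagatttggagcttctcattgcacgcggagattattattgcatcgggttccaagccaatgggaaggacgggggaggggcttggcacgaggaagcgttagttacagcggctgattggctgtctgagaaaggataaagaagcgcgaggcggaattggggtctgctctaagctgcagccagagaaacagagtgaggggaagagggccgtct
Il7r, chr15:9529827-9530126, minus strand: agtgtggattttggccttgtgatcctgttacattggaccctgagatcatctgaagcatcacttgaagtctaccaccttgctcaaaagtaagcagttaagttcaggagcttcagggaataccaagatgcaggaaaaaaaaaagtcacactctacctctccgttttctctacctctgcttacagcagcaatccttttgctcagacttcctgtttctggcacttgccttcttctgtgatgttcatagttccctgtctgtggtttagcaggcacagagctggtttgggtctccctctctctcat
Hspa1b, chr17:34959189-34959488, minus strand: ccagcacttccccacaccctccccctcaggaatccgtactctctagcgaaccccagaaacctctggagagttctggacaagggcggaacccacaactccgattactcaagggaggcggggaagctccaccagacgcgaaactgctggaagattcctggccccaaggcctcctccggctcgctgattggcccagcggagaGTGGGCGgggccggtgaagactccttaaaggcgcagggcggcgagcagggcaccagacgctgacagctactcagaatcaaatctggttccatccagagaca
The Eomes window holds 1 NFAT core, on the opposite strand, the Hspa1b window 1 EGR-type match, and the Sox4 and Il7r windows none of the 4 motifs. RefSeq promoters were found for 54 of the 68 genes that rose and 41 of the 52 that fell. The NFAT core was in 26.9% of the 78 promoters of genes that rose and 17.9% of the 56 promoters of genes that fell, beside 21.4% of all 32851 promoters of the same length and 19.7% of the promoters of tested genes. The AP-1 letters were in 2.56% and 5.36%, beside 7.81% of all promoters and 7.26% of those of tested genes. The NR4A letters were in none of the 78 and in 3.57% of the 56, beside 4.72% and 4.07%. The EGR letters were in 39 of the 78 and 24 of the 56, beside 31.3% of all promoters and 40.4% of the promoters of tested genes. A match is a description of the letters in these windows.

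Immediate targets of the T cell receptor moved in both directions. Of 27 measured early genes, 5 rose, 2 fell and 20 were not called, with a median of 0.49. Nr4a1, the gene of Nur77, had 8.24, 7.86, 9.06 and 8.24 in the int arrays, against 5.78, 6.31, 6.58, 6.17 and 6.39 in the low arrays, with no overlap (2.10 ± 0.29 SE, limma, adjusted p = 2.29e-05). Egr2, a zinc finger factor needed for anergy, averaged 7.83 ± 0.25 (SD, n = 4) in int and 6.46 ± 0.29 (n = 5) in low cells (1.37 ± 0.31 SE, limma, adjusted p = 0.0179). Its groups did not overlap, its call held in 6 of 9 fits that left out 1 array, and its adjusted p was 0.531 without the 3 arrays. The genes that fell encode 2 factors of activation and growth. Jun, a subunit of the AP-1 dimer, had 3.34, 3.83, 3.40 and 3.59 in the int arrays, against 6.47, 7.16, 6.11, 5.33 and 6.04 in the low arrays. All int arrays were close to the dim end and apart from the low arrays (-2.68 ± 0.54 SE, limma, adjusted p = 0.00458). Myc lay at 5.38 to 6.32 in int and 7.13 to 7.37 in low arrays (-1.29 ± 0.27 SE, limma, adjusted p = 0.00657, and 0.0588 without the 3 arrays).

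Among 30 measured feedback inhibitors of signalling, 2 rose, 2 fell and 26 were not called, with a median of 0.08. Rgs16, which speeds GTP hydrolysis by the G proteins behind chemokine receptors, had 7.41, 7.76, 8.69 and 7.58 in int arrays, against 5.47, 5.47, 6.06, 6.06 and 4.66 in low arrays. Every int array exceeded every low array (2.32 ± 0.40 SE, limma, adjusted p = 0.000811, and 0.0964 without the 3 arrays). Dgkz, a kinase that removes the second messenger diacylglycerol, rose by less (0.95 ± 0.19 SE, limma, adjusted p = 0.00458, and 0.22 without the 3 arrays). Ubash3a, a suppressor of T cell receptor signalling, fell to 6.45 ± 0.35 (SD, n = 4) in int cells, against 7.39 ± 0.11 (n = 5) in low cells (-0.95 ± 0.18 SE, limma, adjusted p = 0.00173, and 0.0964 without the 3 arrays). Socs3, an inhibitor of cytokine receptor signalling, fell as well (-1.23 ± 0.30 SE, limma, adjusted p = 0.0422), a call that held in 1 of the 9 fits that left out an array and had an adjusted p of 0.5 without the 3. The anergy list shares Egr2, Dgkz, Nt5e and Lag3 with the groups above. Of its 18 measured members 5 rose and none fell (median 0.28), the fifth being Izumo1r, the gene of folate receptor 4, a surface mark of anergic CD4 cells, with 10.38 to 10.62 in int and 9.37 to 9.66 in low arrays (limma, adjusted p = 0.0056, and 0.18 without the 3 arrays).

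Cytokine and chemokine genes numbered 20 measured, of which 3 rose and none fell, with a median of 0.20. Il21, the gene of a cytokine of follicular helper cells, had 6.09, 7.04, 7.02 and 6.83 in int arrays, against 4.34, 4.76, 4.33, 3.91 and 4.34 in low arrays. Ifng, which encodes interferon gamma, had 6.23, 6.66, 6.98 and 7.18 in int arrays, against 4.07, 4.38, 4.73, 4.95 and 4.34 in low arrays. Il10, the gene of an anti-inflammatory cytokine, had 4.33, 5.62, 5.60 and 4.28 in int arrays, against 2.44, 3.45, 2.72, 3.13 and 2.73 in low arrays. The groups did not overlap for any of the 3 genes, and Il10 was near the dim end in the low group. The differences were 2.41 ± 0.44 (SE, limma, adjusted p = 0.00129) for Il21, 2.27 ± 0.36 (adjusted p = 0.000235) for Ifng and 2.06 ± 0.42 (adjusted p = 0.00519) for Il10. Without the 3 arrays Ifng kept its call (adjusted p = 0.0097), and the adjusted p was 0.112 for Il21 and 0.202 for Il10. Il2, the gene of the T cell growth factor, had 3.21 to 4.24 in int and 3.47 to 5.09 in low arrays, which overlapped (-0.53 ± 0.47 SE, limma, adjusted p = 0.999).

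**Figure D2:**
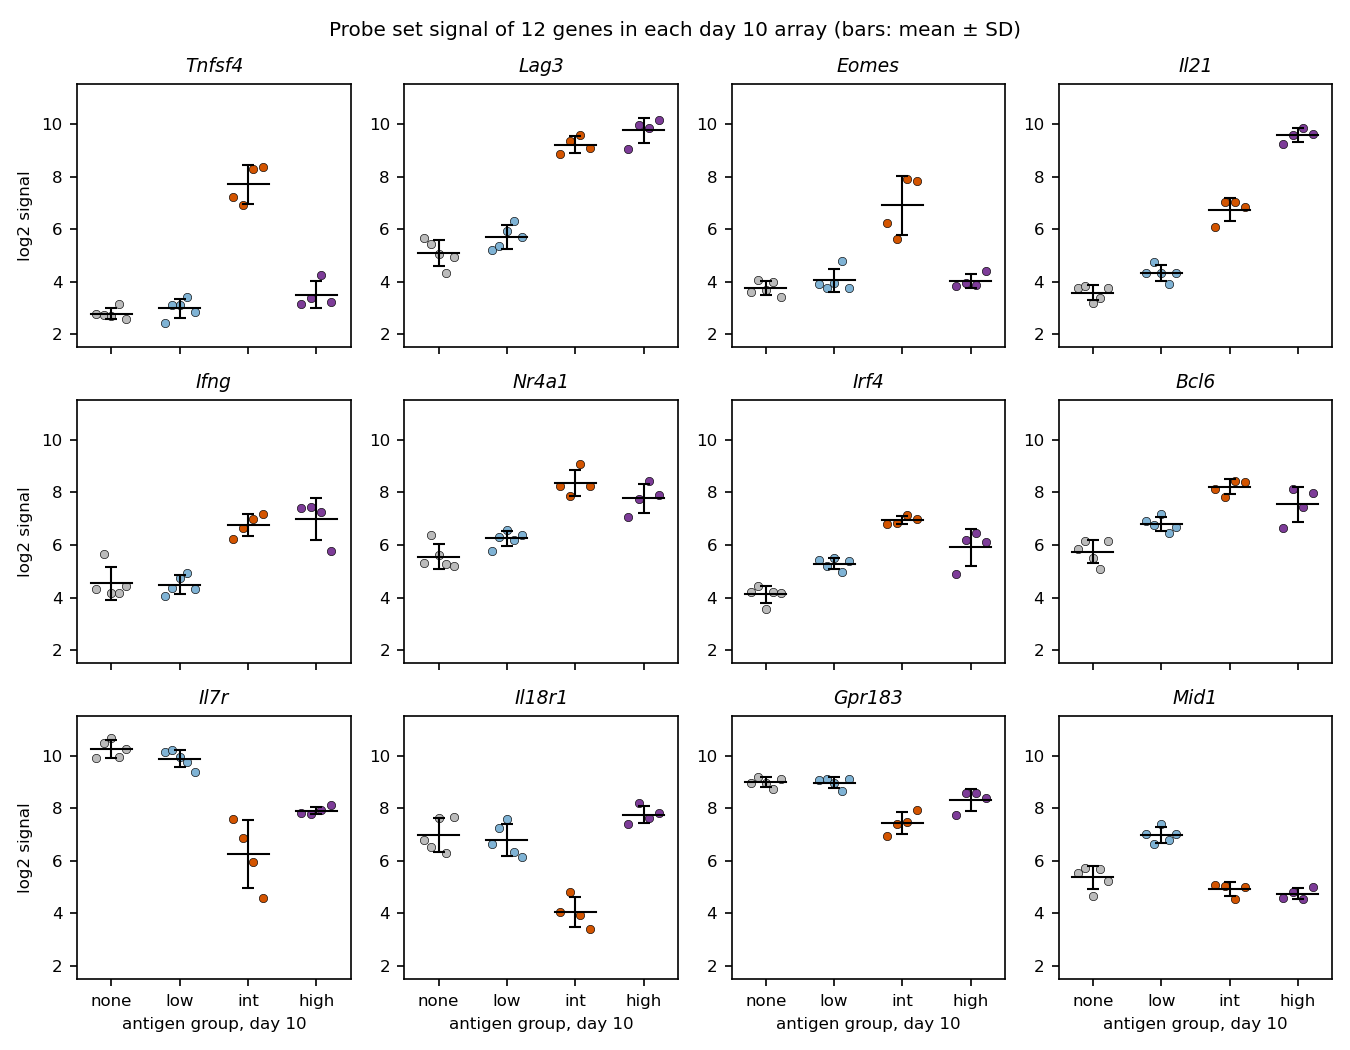
Log2 probe set signal (vertical axis) of 12 genes in every day 10 array, by antigen group from none to high, with bars at the mean ± SD (n = 5, 5, 4 and 4). Tnfsf4 and Eomes stand out in int alone among the 4 groups, Il7r and Il18r1 are lowest in int, and Mid1 is highest in low.

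Follicular helper genes were represented by 17 measured members, of which 4 rose, 1 fell and 12 were not called, with a median of 0.43. Bcl6, the repressor that defines follicular helper cells, had 8.14, 7.83, 8.44 and 8.41 in int arrays, against 6.91, 6.74, 7.17, 6.44 and 6.69 in low arrays, without overlap (1.42 ± 0.29 SE, limma, adjusted p = 0.00519, and 0.32 without the 3 arrays). Cxcr5, the chemokine receptor that leads cells into B cell follicles, averaged 9.82 ± 0.14 (SD, n = 4) in int and 8.59 ± 0.32 (n = 5) in low cells (1.23 ± 0.26 SE, limma, adjusted p = 0.00764, and 0.153 without the 3 arrays). Il21 and Cd200 were the other two. The member that fell was Gpr183, an oxysterol receptor that guides cells to the follicle's edge. Gpr183 had 6.94, 7.40, 7.47 and 7.93 in int arrays, against 9.07, 9.12, 8.94, 8.64 and 9.09 in low arrays, with no overlap (-1.54 ± 0.22 SE, limma, adjusted p = 3.06e-05).

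Among 23 measured Th1 genes 1 rose (Ifng), 5 fell and 17 were not called, with a median of -0.05. At an unadjusted p under 0.05 (limma), 5 were higher and 7 lower. Ccl3 (1.83), Xcl1 (1.09), Ccl4 (1.07), Tnf (1.02) and Fasl (1.02) had differences above 0 and were not called. Il18r1, the ligand-binding chain of the IL-18 receptor, had 4.05, 4.81, 3.94 and 3.41 in int arrays, against 6.65, 7.24, 7.59, 6.32 and 6.14 in low arrays. The highest int array stayed below the lowest low array (-2.74 ± 0.36 SE, limma, adjusted p = 9.08e-06). Il18rap, its signalling partner, had 2.96 to 3.51 in int and 3.61 to 5.80 in low arrays (-1.66 ± 0.33 SE, limma, adjusted p = 0.00442). Ifngr1, the ligand-binding chain of the interferon gamma receptor, averaged 6.07 ± 0.64 (SD, n = 4) in int and 7.57 ± 0.41 (n = 5) in low cells (-1.50 ± 0.33 SE, limma, adjusted p = 0.015), and its call held in 5 of the 9 fits that left out an array, with an adjusted p of 0.202 without the 3. Ly6c2, a surface antigen of Th1 and memory cells, fell by 2.37 (limma, adjusted p = 0.00546, and 0.215 without the 3 arrays), a call held in 7 of 9 fits that left out an array. Its near-identical neighbour Ly6c1 was measured by a probe set of its own, which differed by -0.09 and was not called. Whether the probes fully separate the pair was not tested. Runx3, a factor of Th1 and cytotoxic cells, fell by 0.77 (limma, adjusted p = 0.0422, and 0.0944 without the 3 arrays), a call held in 1 of 9 fits that left out an array. Tbx21, the gene of the Th1 regulator T-bet, was at 6.94 to 7.46 in int and 6.55 to 7.19 in low arrays and was not called (0.29 ± 0.25 SE, limma, adjusted p = 0.999).

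Cytotoxic genes numbered 17 measured, of which 3 fell and none rose, with a median of -0.06. At an unadjusted p under 0.05 (limma), 4 were higher and 5 lower. Gzmk (1.08), Fasl (1.02) and Gzmb (0.85) had differences above 0 and were not called. Klrd1 (CD94), a lectin receptor of cytotoxic cells, had 4.15, 4.70, 4.38 and 3.32 in int arrays, against 6.50, 7.05, 6.84, 6.99 and 4.12 in low arrays. Low replicate 5 stood with the int arrays, so the groups overlapped (-2.16 ± 0.44 SE, limma, adjusted p = 0.00458). Klrk1, the gene of NKG2D, averaged 3.14 ± 0.10 (SD, n = 4) in int and 4.99 ± 0.46 (n = 5) in low cells. Ctsw, the protease cathepsin W, had 7.26 to 8.33 in int and 8.77 to 9.22 in low arrays. Their differences were -1.85 ± 0.43 (SE, limma, adjusted p = 0.026) for Klrk1, held in 2 of 9 fits that left out an array and at adjusted p = 0.19 without the 3, and -1.28 ± 0.23 (SE, adjusted p = 0.000845) for Ctsw. Of the markers of other cells with such genes, Ncr1, a receptor of natural killer cells, lay at 2.60 to 3.04 in int and 2.64 to 3.01 in low arrays and Cd8a at 2.70 to 3.32 and 2.85 to 3.42, both at the dim end. Klrb1c (NK1.1) was brighter, at 4.86 to 5.57 in int and 4.18 to 4.97 in low arrays, as was Cd8b1 at 3.77 to 4.39 and 3.87 to 5.16. The 6 measured markers of natural killer, CD8 and gamma-delta T cells summed to a linear signal of 78 to 101 in int and 62 to 96 in low arrays, and none was called (limma, none at an unadjusted p under 0.05). The part of such cells in these differences was not tested.

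Genes of resting and memory cells fell in part. Il7r, the receptor chain for the survival cytokine IL-7, had 7.58, 6.85, 5.97 and 4.59 in int arrays, against 10.12, 10.20, 9.94, 9.74 and 9.39 in low arrays. The int arrays were spread over about 3 log2 units, all below the low arrays, and the difference was -3.63 ± 0.44 (SE, limma, adjusted p = 2.48e-06). Among the 21 measured genes of the naive and central memory list, 4 fell (Il7r, Ly6c2, Dapl1 and S1pr1), none rose and 17 were not called, with a median of -0.10. Dapl1, a gene of resting T cells, averaged 8.79 ± 0.43 (SD, n = 4) in int and 9.94 ± 0.20 (n = 5) in low cells (-1.15 ± 0.19 SE, limma, adjusted p = 0.00053, and 0.056 without the 3 arrays). S1pr1, the receptor for exit from lymphoid tissue, had 7.47 to 8.75 in int and 8.56 to 9.56 in low arrays, which overlapped (-0.93 ± 0.23 SE, limma, adjusted p = 0.0425), and the call held in 3 of 9 fits that left out an array, with an adjusted p of 0.21 without the 3. Among 21 measured cytokine receptors 4 fell and none rose (median 0.06), namely Il7r, Il18r1, Il18rap and Ifngr1. Among 26 chemokine receptors, integrins and exit receptors 1 rose (Cxcr5) and 3 fell (Gpr183, S1pr1 and the integrin chain Itgb7, at -0.65 ± 0.16 SE, limma, adjusted p = 0.046), with a median of 0.11. The Itgb7 call held in 0 of 9 fits that left out an array, and its adjusted p was 0.273 without the 3.

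Besides Tnfsf4 and Tnfrsf4, the 18 measured members of the TNF family and its receptors held 1 gene that fell. Cd40lg, through which helper T cells activate B cells and dendritic cells, had 7.45, 7.20, 6.92 and 7.21 in int arrays, against 8.84, 8.69, 8.55, 8.63 and 8.26 in low arrays, without overlap (-1.40 ± 0.24 SE, limma, adjusted p = 0.000812). The list's median was 0.36. Tnfrsf9, the gene of the costimulatory receptor 4-1BB, had 5.73 to 6.82 in int and 4.79 to 5.22 in low arrays, and at 1.40 ± 0.44 (SE) was not called (limma, adjusted p = 0.229). Of 19 measured regulatory T cell and Tr1 genes, 3 rose (Ikzf2, Il10 and Lag3) and none fell, with a median of 0.53. Foxp3, which defines regulatory T cells, was dim in both groups, at 3.24 to 3.84 in int and 3.40 to 3.94 in low arrays (-0.01 ± 0.27 SE, limma, adjusted p = 0.999).

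**Figure D3:**
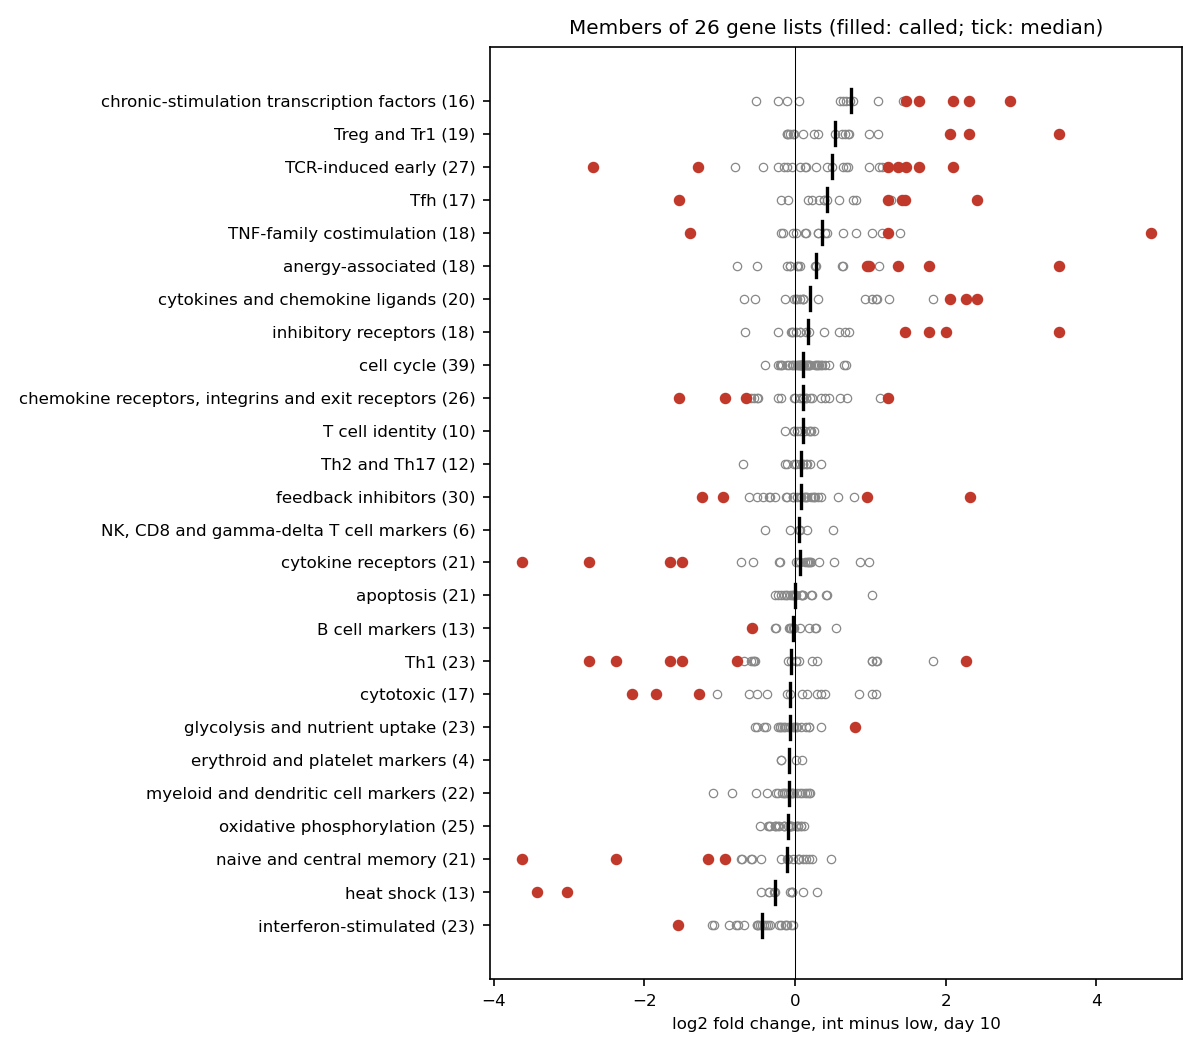
Log2 fold changes of int minus low on day 10 (horizontal axis) for the measured members of 26 gene lists (rows, with the number measured), filled where limma called the gene, with a tick at each list's median. Medians run from 0.75 for chronic-stimulation transcription factors to -0.44 for interferon-stimulated genes, and a gene can stand in more than 1 list.

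Few or no genes were called in several other groups, beside 0.541% of all genes tested. At that share a list of this length can hold no call without differing from other genes. Over all 22180 genes, 1292 had an unadjusted p under 0.05 (limma). None of 39 measured cell cycle genes was called (limma, with 6 higher and 1 lower at an unadjusted p under 0.05), and the median was 0.11. Mki67, a marker of cycling cells, had 4.11, 4.28, 4.58 and 5.63 in int arrays and 3.87 to 4.29 in low arrays (0.65 ± 0.30 SE, limma, adjusted p = 0.749). None of 25 oxidative phosphorylation genes was called (limma, 3 lower at an unadjusted p under 0.05), with a median of -0.09. Hif1a, the factor that drives glycolytic genes in low oxygen, was called alone of 23 genes of glycolysis and nutrient uptake, at 9.04 to 9.21 in int and 8.20 to 8.50 in low arrays (0.80 ± 0.15 SE, limma, adjusted p = 0.00145). None of 12 Th2 and Th17 genes was called (limma, 1 lower at an unadjusted p under 0.05), and none of 21 apoptosis genes (1 higher at an unadjusted p under 0.05).

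All 23 measured interferon-stimulated genes had a difference below 0, between -1.55 and -0.02 with a median of -0.44, beside a median of about 0 over all genes. Of these 23, only Oas2, a sensor of double-stranded RNA, was called, with 4.15, 3.55, 4.08 and 3.45 in int arrays, against 5.57, 5.21, 5.44, 4.91 and 5.64 in low arrays (-1.55 ± 0.31 SE, limma, adjusted p = 0.00458). Ifit1, another antiviral gene, had 5.35 to 6.75 in int and 7.07 to 7.59 in low arrays, yet missed the threshold (-1.10 ± 0.29 SE, limma, adjusted p = 0.0799). A further 8 of the 23 had an unadjusted p under 0.05, Ifit1 included. The list does not hold every gene of this kind. Outside it, Ifit1bl1 (-1.51 ± 0.36 SE, limma, adjusted p = 0.0313) and Epsti1 (-1.35 ± 0.24 SE, adjusted p = 0.000949) were called lower. Both were picked after their values were seen, and their calls without the 3 arrays are not given here.

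Of 13 measured heat shock genes, only the near-identical pair Hspa1b and Hspa1a was called, and their probes may not tell the 2 genes apart. Hspa1b had 3.51, 4.07, 2.95 and 3.51 in int arrays, against 6.30, 6.56, 7.65, 6.74 and 7.42 in low arrays, so that all int arrays were near the dim end (-3.42 ± 0.73 SE, limma, adjusted p = 0.00921, and 0.266 without the 3 arrays). Hspa1a had 2.57 to 3.11 in int and 4.59 to 6.81 in low arrays (-3.03 ± 0.67 SE, limma, adjusted p = 0.013, and 0.0952 without the 3 arrays). The Hspa1a call held in 6 of 9 fits that left out an array. In the other day 10 groups Hspa1b averaged 6.97 ± 0.96 in none and 4.55 ± 1.18 in high cells (SD, n = 5 and 4), and on day 30 int cells averaged 6.97 ± 2.27 and low cells 9.46 ± 0.56 (n = 5 each). Jun had the same order of the 4 groups on day 10, with means of 6.43, 6.22, 3.54 and 5.04 in none, low, int and high cells. Atf3, a stress-induced factor on the same list, differed by -0.04 between int and low cells.

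Ighm, the immunoglobulin mu chain gene and a B cell marker, fell by 0.57 (limma, adjusted p = 0.0322), with 8.92 to 9.47 in int and 9.62 to 9.91 in low arrays. The call held in 3 of 9 fits that left out an array, and its adjusted p was 0.498 without the 3. Ighm was the only one of 13 measured B cell markers that was called. Ms4a1 (CD20) lay at the dim end, at 2.44 to 2.81 in int and 2.50 to 2.88 in low arrays, and Cd79a at 3.03 to 4.15 and 3.17 to 3.58. Cd22 was brighter, at 4.76 to 7.15 in int and 5.19 to 5.91 in low arrays (0.54 ± 0.36 SE, limma, adjusted p = 0.999). The summed linear signal of the 13, which includes Ighm itself, was 671 to 956 in int and 950 to 1107 in low arrays. Their mean log2 signal was 3.67 to 3.98 in int and 3.64 to 3.87 in low arrays. The 22 measured myeloid and dendritic cell markers summed to 1033 to 1337 in int and 1032 to 1285 in low arrays, and the 4 erythroid and platelet markers to 31 to 36 and 30 to 38. No gene of these 2 lists was called (limma, 1 lower at an unadjusted p under 0.05 among the first and none among the second). Of the 22 myeloid and dendritic cell markers, 15 had a difference below 0, with a list median of -0.08. S100a8 lay at 4.48 to 6.3 in int and 5.0 to 7.38 in low arrays (-0.84 ± 0.84 SE). S100a9 lay at 4.14 to 5.82 and 4.87 to 6.78 (-1.09 ± 0.71 SE). The part of other cells in the differences was not tested.

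In all, 43 of the 429 measured genes in these lists were called, 21 higher and 22 lower, beside 0.541% of all genes tested. The lists were chosen with earlier results of these data known, so their share of calls is a description and no test. A further 77 called genes stood in none of the lists. Several of these were picked here after their values were seen. Gpm6b, a membrane glycoprotein best known from the nervous system, had 7.89, 7.46, 7.11 and 8.05 in int arrays, against 4.79, 5.18, 5.65, 5.24 and 6.26 in low arrays (2.20 ± 0.39 SE, limma, adjusted p = 0.000845). Alcam, an adhesion molecule that binds CD6 on T cells, had 7.31 to 7.37 in int and 5.56 to 6.24 in low arrays (1.43 ± 0.27 SE, limma, adjusted p = 0.00225, and 0.0519 without the 3 arrays). Ephx1, an epoxide hydrolase, rose by 1.35 (limma, adjusted p = 0.000345) and Itga9, an integrin chain, by 1.14 (limma, adjusted p = 0.000845). Lax1, an adaptor that damps antigen receptor signalling, rose by 1.04 (limma, adjusted p = 0.00479, and 0.311 without the 3 arrays), and Myb, a factor of progenitor cells that also maintains stem-like T cells, by 1.17 (limma, adjusted p = 0.0115, and 0.123 without them). The Myb call held in 7 of 9 fits that left out an array. On the falling side, Pdlim1, a LIM domain protein of the cytoskeleton, had 6.90, 6.64, 6.23 and 5.66 in int arrays, against 8.69, 8.49, 8.38, 7.97 and 7.78 in low arrays (-1.90 ± 0.33 SE, limma, adjusted p = 0.000811). Slc16a5, a monocarboxylate transporter, fell by 1.78 (limma, adjusted p = 0.0187, and 0.123 without the 3 arrays), a call held in 4 of 9 fits that left out an array. S100a13, a calcium-binding protein, fell by 1.11 (limma, adjusted p = 0.000961, and 0.119 without the 3 arrays) and Tagln2, an actin-binding protein, by 0.78 (limma, adjusted p = 0.00458, and 0.215 without them).

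The step from none to low antigen on the same day, which shares the 5 low arrays, called 1 gene (limma, 0.00451% of those tested, with 760 at an unadjusted p under 0.05). That gene was Smc4, a condensin subunit, and it was not called in int against low cells (0.26 ± 0.10 SE, adjusted p = 0.478). For the 68 genes higher in int than in low cells the median difference was 1.27 at that step and 0.20 at the step from none to low. For the 52 lower in int cells the medians were -1.24 and -0.03. Both sets were selected for a large difference between int and low cells. A smaller one between low and none cells is therefore not itself a result. The shared low arrays enter these steps with opposite signs. The selection can thus pull the none to low medians away from the direction of the low to int step. Tnfsf4 averaged 2.79 ± 0.22, 2.98 ± 0.37, 7.70 ± 0.73 and 3.51 ± 0.52 in none, low, int and high cells (SD, n = 5, 5, 4 and 4). Neighbouring none and low cells, and low and high cells, overlapped in their spread, and int stood apart from all. Lag3 averaged 5.09 ± 0.51, 5.71 ± 0.45, 9.21 ± 0.31 and 9.75 ± 0.48, so int and high were within their spread of each other. Il21 averaged 3.59 ± 0.28, 4.34 ± 0.30, 6.74 ± 0.45 and 9.57 ± 0.26 and was ordered by dose. Irf4 averaged 4.12 ± 0.33, 5.29 ± 0.21, 6.94 ± 0.15 and 5.91 ± 0.70, with its highest level in int. Eomes in high cells (4.02 ± 0.26) was within the spread of none cells (3.75 ± 0.27). Sox4 averaged 3.62 ± 0.51 in high cells, below the 3.83 ± 0.14 of none cells, with spreads that overlapped. High cells came from another recipient strain, so dose and strain cannot be told apart there, and int was not tested against high here.

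Whether the int step differed from the low step was tested as 1 contrast, the difference of the 2 differences, in the same limma fit. It called 1 gene, Mid1 (0.00451% of those tested, with 661 at an unadjusted p under 0.05). Mid1, a microtubule-associated ubiquitin ligase, had 5.09, 5.03, 4.53 and 5.01 in int arrays, against 7.01, 6.65, 7.41, 6.78 and 7.03 in low arrays. In none arrays it averaged 5.36 ± 0.44 (SD, n = 5) and in high arrays 4.74 ± 0.21 (n = 4), so the low group was the high one. The int step was -2.06 ± 0.36 (SE, limma, adjusted p = 0.000845), the low step 1.61 (adjusted p = 0.275), and their difference -3.67 (adjusted p = 0.00678). Tnfsf4, at a difference of 4.52 ± 0.89 (SE), had an adjusted p of 0.0913 in this test. For the other genes the 2 steps were not shown to differ.

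The same dose step was measured on day 30 in other arrays. There limma called 121 genes (0.546% of those tested), 66 higher and 55 lower in int cells. Of the 120 day 10 genes, 103 had the same sign on day 30 and 23 were called in the same direction, which is 19.2% of the day 10 calls and 19% of the day 30 calls. Over all 22180 genes, 11344 (51.1%) had the same sign on both days, and 93 of the 121 genes called on day 30 had it. Of the 23, 13 were higher on both days, among them Lag3, Eomes, Ikzf2, Sox4, Cd200, Lax1 and Itgb8, a chain of an integrin that activates TGF-beta (day 10 adjusted p = 0.0337, held in 2 of 9 fits that left out an array, and 0.659 without the 3). The other ten were lower on both days and included Il7r, Cd40lg, Dapl1, Ifngr1, Klrd1, Klrk1, Myc and Ighm. Lag3 averaged 9.22 ± 0.12 (SD, n = 5) in int and 7.39 ± 0.97 (n = 5) in low cells on day 30 (1.83, limma, adjusted p = 0.0254). Il7r averaged 6.31 ± 1.02 and 8.41 ± 1.02 (-2.10, adjusted p = 0.00662), and Cd40lg 6.39 ± 0.57 and 8.00 ± 0.52 (-1.61, adjusted p = 9.34e-05). The genes of the day 10 step had smaller differences on day 30, with a median of 0.59 for those that rose and -0.46 for those that fell. Genes called on day 10 were selected for a large difference on that day, so a smaller one on another day is not itself a result. Across the 120 genes the 2 sets of differences correlated at 0.76, a description over genes that were chosen for the first.

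**Figure D4:**
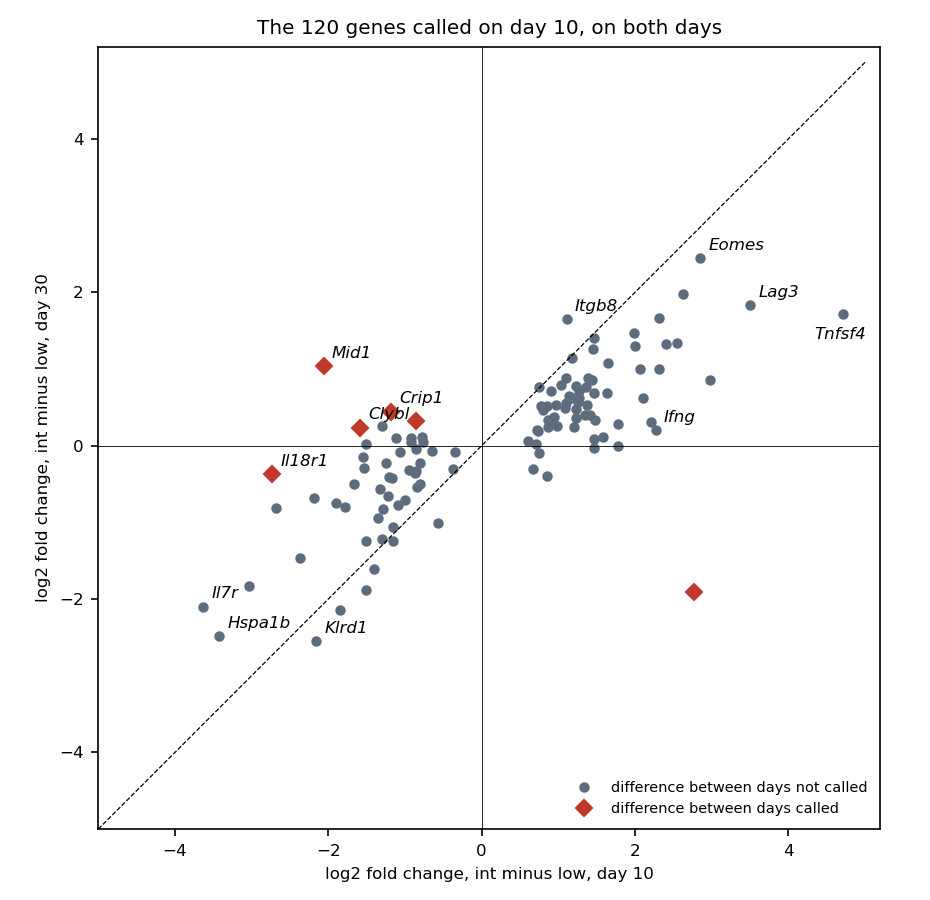
Log2 fold change of int minus low on day 10 (horizontal axis) and on day 30 (vertical axis) for the 120 genes called on day 10, with the line of equal change dashed. Most points lie in the quadrants of equal sign, and red diamonds mark the 6 genes whose difference changed between days.

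The change of the dose step between days was tested as an interaction, with day and the second series of sorts confounded. It called 18 genes (limma, 0.0812% of those tested), 12 with a higher (0.0541%) and 6 with a lower (0.0271%) int minus low difference on day 30. Of the 120 day 10 genes, 6 were among them. Il18r1 had fallen on day 10 (-2.74), but on day 30 int cells averaged 4.26 ± 0.29 and low cells 4.63 ± 0.85 (SD, n = 5 each), a difference of -0.37, and the interaction was 2.37 (limma, adjusted p = 0.0328). Mid1 averaged 5.32 ± 1.32 in int and 4.29 ± 0.25 in low cells on day 30, and its interaction was 3.10 (adjusted p = 0.00107). Crip1, a LIM domain protein of effector and memory cells, was lower in int cells on day 10, at 9.69 ± 0.41 (n = 4) against 10.87 ± 0.21 (n = 5) in low cells, and not on day 30, at 10.66 ± 0.25 against 10.22 ± 0.29, with an interaction of 1.62 (adjusted p = 0.00678). Clybl, a mitochondrial lyase, followed the same pattern with an interaction of 1.82 (adjusted p = 0.0291).

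Most of the other named genes in the interaction were not called on day 10. Mef2c, a MADS-box factor, was dim in every day 10 array, at 3.33, 3.47, 3.74 and 3.34 in int and 3.35, 3.36, 3.17, 3.49 and 3.51 in low arrays. On day 30 it was at 3.63 ± 0.38 (SD, n = 5) in int cells, against 6.94 ± 0.63 (n = 5) in low cells, and the interaction was -3.40 ± 0.29 (SE, limma, adjusted p = 1.63e-10). Irf8, an interferon regulatory factor, had 8.09 ± 0.60 in int and 6.87 ± 0.47 in low cells on day 10 (1.22, limma, adjusted p = 0.0593) and 7.60 ± 0.44 and 8.39 ± 0.26 on day 30 (-0.80, adjusted p = 0.333). The interaction of Irf8 was -2.02 (adjusted p = 0.0348). Rgs10, a relative of Rgs16, had an interaction of -1.15 (adjusted p = 0.00107), Il6st, the gp130 chain of the IL-6 receptor, -0.92 (adjusted p = 0.0291), and Pfn2, an actin-binding profilin, -1.24 (adjusted p = 0.0328). The int arrays of Irf8, Rgs10 and Pfn2 lay above all low arrays on day 10, although none of these genes was called there. Over all genes, 826 (3.72%) did not overlap on that day. The interaction that picked these genes uses the same day 10 values, so this separation is a description only. Gprin3 had 1.65 (adjusted p = 0.0328). In 19 fits that each left out 1 array, Mef2c, Rgs10, Mid1 and Crip1 kept the call in all, while Irf8, Pfn2, Il6st, Il18r1, Clybl and Gprin3 kept it in 6 to 11. A long non-coding RNA, I730030J21Rik, was the only gene called in opposite directions on the 2 days, at 2.77 on day 10 and -1.91 on day 30, and it was picked after its values were seen. Ifng, with 2.27 on day 10 and 0.20 on day 30 (adjusted p = 0.923), was not called in the interaction (-2.07, adjusted p = 0.0939), and neither was Tnfsf4 (-3.00, adjusted p = 0.119).

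**Figure D5:**
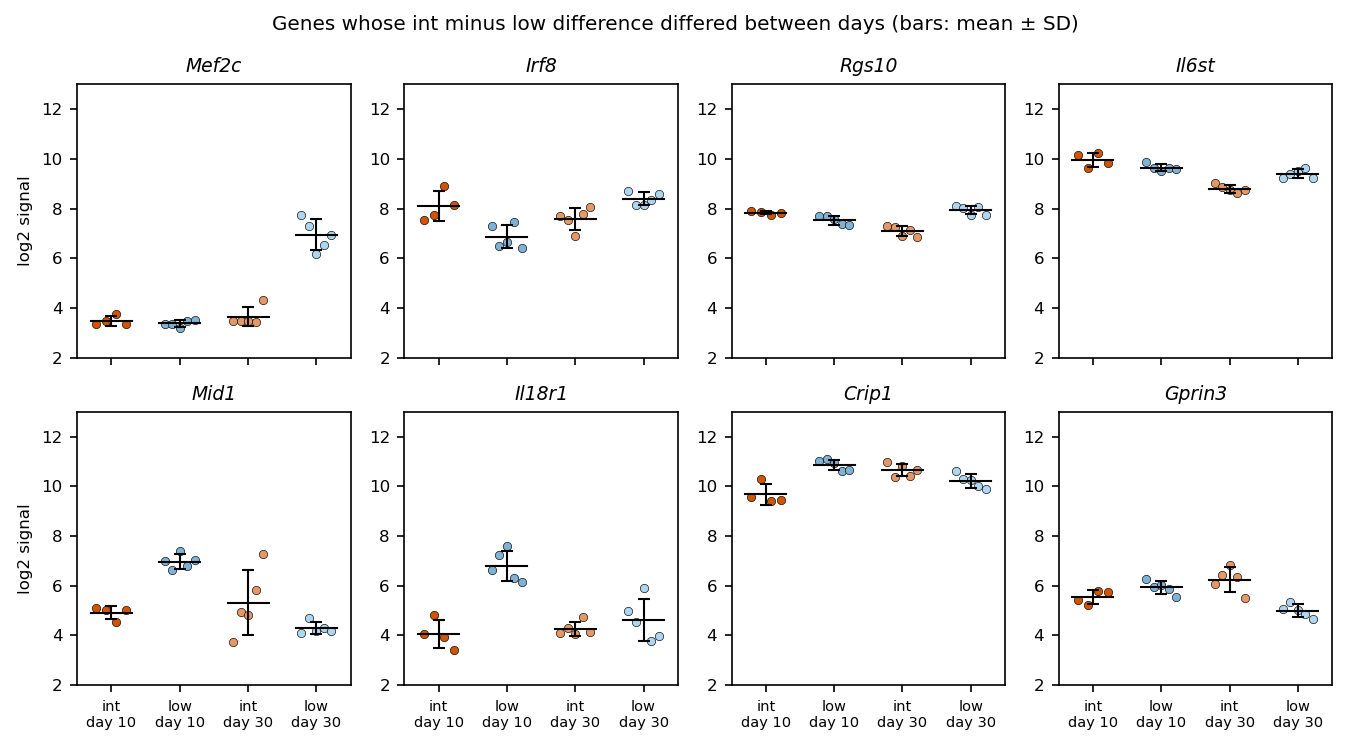
Log2 probe set signal (vertical axis) of 8 genes with a called interaction in the int and low arrays of day 10 and day 30, with bars at the mean ± SD (n = 4, 5, 5 and 5). Mef2c is high in low cells of day 30 only, and Il18r1 is high in low cells of day 10 only.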

How the data were processed

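Between 0.1 and 30 ng of RNA per sample, amplified by the Ovation Pico WTA System V2 per the labels' protocols, was hybridized to 43 single-colour arrays. The authors deposited log2 signal per probe set, which ran from 1.46 to 13.87, with the log base judged from the values. How background was removed, probes summarized and arrays normalized is not given in the sources used here. The floor of the scale compresses low signals and can shrink the fold changes of dim genes. The 23521 of 41345 probe sets with exactly 1 symbol were used. Where a symbol had several, the brightest probe set by its mean over the 43 arrays represented it (1082 symbols).

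All arrays of 9 groups entered one fit of limma 3.58.1 in R 4.3.3 (lmFit, eBayes with a variance trend), and 5 contrasts were tested over 22180 genes. A gene was called at an adjusted p under 0.05, and no intensity filter was used. On simulated data for int minus low on day 10 (22180 genes, 50 planted per size), the test recovered 12% of changes of log2 0.5, 84% of 1, 88% of 1.5 and 100% of 2, with 10 false calls. Alternatives were other normalizations, filters, variance models, a replicate block and leaving out arrays. Named genes were those of a fixed set, up to 12 called genes at each end of the fold changes (unnamed genes, receptor segments, small RNAs and histones left out), up to 4 called members of each list, up to 5 genes in each direction of the interaction, and array checks. Other list members and genes in no list were named after their values were seen. The comparison, the lists and the rule for names were chosen with earlier results of these data known. The number of arrays limits the precision.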

Additional observations from a re-analysis of the deposited data

Results flagged for a closer look

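Among 148 pairs of a named gene and a day 10 group, 6 had 1 array far from the others by Dixon's gap test, and chance alone gives about 1 in 20. Klrd1 in low replicate 5 was 4.12, below 6.50 to 7.05 in the other low arrays. Eomes in low replicate 4 was 4.80, above 3.78 to 3.95 in the other low arrays, and Thy1 in the same array was 10.77, below 11.22 to 11.40. Int replicate 3 was lowest for Il2 at 3.21 (4.08 to 4.24 in the other int arrays) and for Mid1 at 4.53 (5.01 to 5.09). Nt5e in int replicate 4 was 7.89, above 7.01 to 7.16 in the other int arrays.

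The int minus low difference changed between day 10 and day 30 by limma's interaction for 10 named genes. The change was -3.40 for Mef2c, -2.02 for Irf8, -1.24 for Pfn2, -1.15 for Rgs10 and -0.92 for Il6st. It was 3.10 for Mid1, 2.37 for Il18r1, 1.82 for Clybl, 1.65 for Gprin3 and 1.62 for Crip1. For Mid1 the int minus low step on day 10 also differed from the low minus none step, by -3.67.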

How the results depend on the processing

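Of 1120 values of called named genes under the alternatives, 998 kept direction and call, 122 lost the call and none reversed. Direction and call of 39 of the 56 called named genes, and of 59 of all 120 called genes, held in each of 9 fits that left out 1 int or low array. Without int replicate 3 and low replicates 4 and 5, an alternative chosen after seeing the data that leaves 3 arrays in each group, 23 of the 56 kept the call and 33 lost it. For int minus low on day 10 (120 genes) the count was 208 with only the groups compared, 354 with array weights, 41 without the 3 arrays and 78 to 102 on leaving out 1 array, with 78 without int replicate 3 and 79 without int replicate 4. The 68 higher and 52 lower genes became 58 and 45 with arrays centred on their median, 68 and 42 with quantile normalization, 117 and 91 with only the groups compared, and 168 and 186 with array weights. Low minus none (1 gene) gave 0 with quantile normalization, centring, no variance trend, robust variance, without 2 naive arrays that hold B cell and myeloid transcripts (added after seeing the data) or without the 3 arrays, 2 with only the groups compared, 13 with array weights and 0 to 1 on leaving out 1 array. Int minus low on day 30 (121 genes) gave 45 with only the groups compared, 75 with array weights and 67 to 110 on leaving out 1 array, the lowest without low replicate 3 and int replicate 2 (69). The interaction with day (18 genes) gave 10 with quantile normalization, 28 with only genes above the median level, 38 with array weights, 11 without the 3 arrays and 8 to 26 on leaving out 1 array, the lowest without day 30 int replicate 3. The difference of steps (1 gene) gave 9 with only the groups compared, 27 with array weights, 2 without the naive arrays, 0 without the 3 arrays and 0 to 3 on leaving out 1 array. The cause of these changes was not tested, except that fewer arrays were used where arrays were left out.

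No pairing of samples by replicate number was seen, although so few arrays cannot exclude one. Deviations of int and low arrays with the same number correlated at 0.023, -0.005, -0.051 and 0.038 on day 10. Those with different numbers correlated at -0.132 to 0.137. With the replicate number as a block, in a fit of only the groups compared, 198 genes were called for int minus low on day 10 (97 higher, 101 lower), 44 on day 30, 0 for low minus none and 7 for the difference of steps. Signals near 3 are at the floor, which limits the size of changes among dim genes.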
